A study of Mus musculus with 4 samples.

Results

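Mitochondrial DNA (mtDNA) is a small circular genome present in many copies per cell, and it was read in the same bisulfite libraries as the nuclear genome of hippocampal microglia. Its members here are all cytosines in CpG context listed on the mitochondrial chromosome, each strand apart, with no choice by measured value. There were 458 such cytosines at 232 CpGs, with 446, 447, 452 and 452 of them listed in control replicates 1 and 2 and in fetal growth restriction (FGR) replicates 1 and 2. The whole tables of these libraries listed 9335713, 10023353, 7615146 and 13578464 cytosines. The 2 control and 2 FGR libraries all came from mice with the genotype Tmem119-tdTomato+/-, a red reporter at a gene of microglia, at postpartum week 3. Microglia are the resident immune cells of the brain. How growth was restricted, the sex of the mice and whether a library is 1 animal or a pool are not given in the labels, so a p-value here speaks of the spread among these 4 libraries alone. Positions are those of the mm10 mitochondrial chromosome, and genes are those of the RefSeq table of GRCm38.p6.

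The circle encodes 13 proteins of the respiratory chain and ATP synthase, 22 tRNAs and 2 rRNAs, and nearly all other proteins of mitochondria come from the nucleus. Both strands are transcribed as long precursors from a control region that holds the promoters and an origin of replication. Whether CpGs of mtDNA are methylated in mammals has long been debated. In bisulfite sequencing a cytosine read as C was protected from conversion, and a level is the percent of reads that read C. Modified cytosines and cytosines that were not converted give the same reading. Nuclear chromosomes also carry copies of mtDNA, whose reads can resemble those of the circle.

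The libraries were checked for the labelled cell type and for their nuclear levels. Over the whole gene span, the 7 microglial genes had control levels of 23.6% to 64.8% with a median of 36.6%, against a median of 77.4% over all regions tested. The spans of Rbfox3, Snap25 and Syt1, genes of neurons, had 69.3% to 74.1%, and Mog and Mbp, genes of oligodendrocytes, had 74.5% and 80.1%. Gfap, Aqp4 and Slc1a2, genes of astrocytes, had 44.2% to 78.7%, and Cd3e, a gene of lymphocytes, 76.4%. Of the endothelial genes Pecam1 had 81.2%, and Cldn5 was not listed in all 4 libraries. The marker levels so far are those of control. In FGR the microglial genes had 16.2% to 64.2% with a median of 41.9%, against 76.1% over all regions tested. The 3 neuronal genes had 64.5% to 73.9% in FGR, the 3 astrocyte genes 56.2% to 80.5%, Mog 84.4% and Mbp 79.1%. Cd3e had 73.4% and Pecam1 76.3% in FGR. Autosomal levels were 76.3 ± 0.281% in control and 75.2 ± 0.618% in FGR (SD, n = 2 each).

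The mtDNA level was about 1% in the controls and higher in both FGR libraries. Of 36732 and 53037 mtDNA read counts in control replicates 1 and 2, 403 and 506 read C, which are levels of 1.10% and 0.954%. In FGR replicates 1 and 2, 2635 of 45933 and 2329 of 80789 read C, which are 5.74% and 2.88%. Wilson's 95% intervals were 0.996% to 1.21% and 0.875% to 1.04% in the controls, and 5.53% to 5.95% and 2.77% to 3.00% in FGR. These intervals hold for counting error alone: the tables do not mark duplicates, and CpGs close together are read on the same molecules. The groups did not overlap, and the FGR libraries differed from each other far more than the controls did. The group levels were 1.03 ± 0.101% and 4.31 ± 2.02%, a difference of 3.28 percentage points (n = 2 each, two-sided exact permutation p = 0.333). With 2 libraries against 2 there are 6 assignments, and 0.333 is the smallest p they can give. The difference was 1.86 points without FGR replicate 1, and it stayed above the gap between the controls.

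CpG-dense promoters of nuclear genes gave the level that the same libraries show where nuclear DNA is nearly unmethylated. The set was 8475 autosomal promoters with at least 20 CpGs in 300 bases. The level of their listed cytosines was 4.03% and 3.51% in the controls and 3.08% and 3.50% in FGR replicates 1 and 2. Listed there were 17888 and 16112 cytosines in the controls and 21125 and 21752 in FGR, not the same set in each library. FGR replicate 1 was the lowest there, and FGR replicate 2 and control replicate 2 were nearly equal, at 3.497% and 3.511%. The part of cytosines that were not converted in the mtDNA levels was not tested. These promoters were chosen for comparison after the mtDNA levels were seen.

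The higher level of FGR was spread over many positions but was uneven along the circle. The median mtDNA cytosine had a level of 1.03% and 0.800% in the controls and 4.0% and 1.93% in FGR replicates 1 and 2. No methylated read was seen at 187 and 144 cytosines in the controls and at 42 and 31 in FGR, with coverage of 5 to 370 reads per cytosine. At the same level a deeper library has fewer such cytosines. The mean coverage was 82.4 and 119 reads in the controls and 102 and 179 in FGR. Control replicate 1 had 8 cytosines above 5% and control replicate 2 had 0. FGR replicates 1 and 2 had 186 and 86 above 5%, 71 and 28 above 10%, and 20 and 8 above 20%. The highest single level was 7.55% in control replicate 1 and 5.0% in control replicate 2, but 48.6% and 32.1% in FGR. Levels above 7.55% in both FGR libraries were found at 33 cytosines, and 28 of these lay in COX1.

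**Figure D1:**
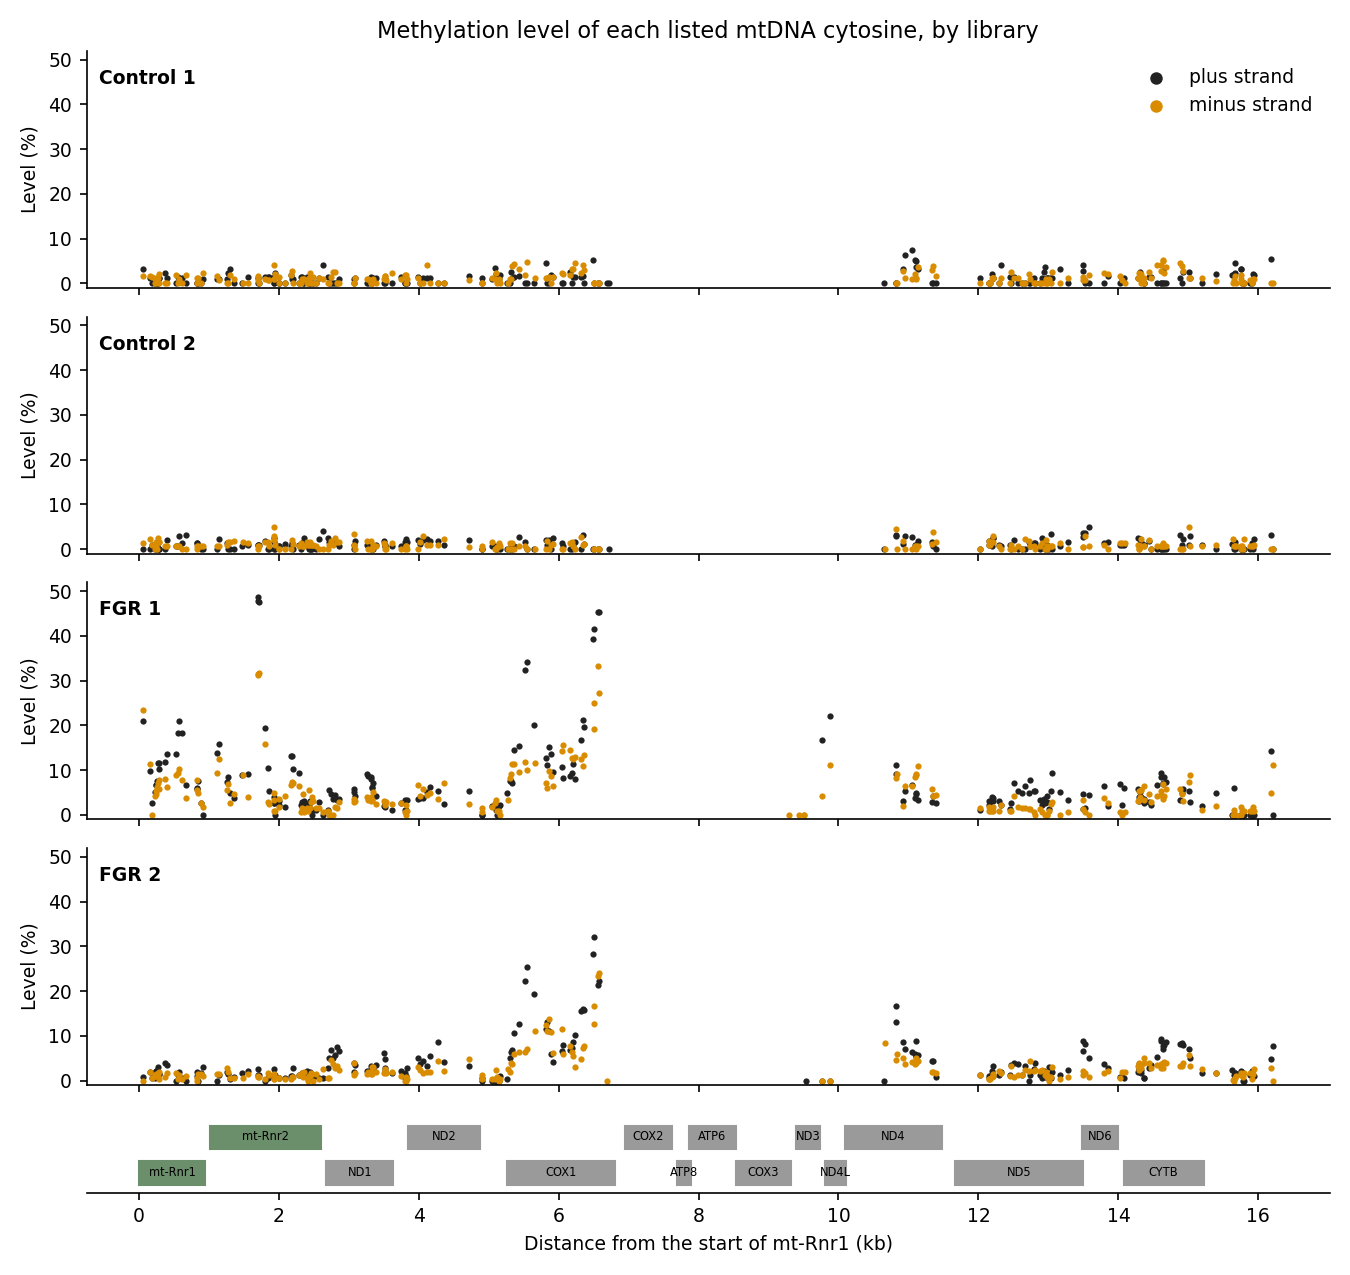
Methylation level in percent (vertical axis, 1 panel per library) of each listed mtDNA cytosine against its distance in kb from the start of mt-Rnr1, with plus strand cytosines in black and minus strand cytosines in orange; boxes below mark protein genes (grey) and rRNA genes (green). Both controls stay at or below 7.55%, both FGR libraries rise across COX1, and FGR replicate 1 alone rises across the rRNA genes.

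In windows of 500 bases, 25 of which were measured in all 4 libraries, the FGR mean was higher in 25 and both FGR libraries lay above both controls in 24. The exception was the window from 15501 to 16000, in the control region, with 0.902% and 0.754% in the controls and 0.680% and 1.10% in FGR. The median window had 0.912% and 0.892% in the controls and 4.85% and 2.40% in FGR. Neighbouring windows share reads, and the window length was set after the levels were seen.

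Single cytosines were tested with a quasi-binomial model fitted to all 20541 cytosines of the genome with at least 10 reads in every library. Of 438 mtDNA cytosines tested, 0 were called at an adjusted p under 0.05, and the smallest adjusted p was 0.308. The model called 0.107% of all tested cytosines. At an unadjusted p under 0.05 there were 92 mtDNA cytosines, where 3.93% of all tested cytosines reached that p. Of the 92, 91 were higher and 1 lower in FGR, against 1.54% higher and 2.39% lower among all tested cytosines. The limma test on log2 ratios also called 0, with 93 at an unadjusted p under 0.05. Both FGR libraries lay above both controls at 242 of the 438 cytosines, 55.3%, against 14.5% of all tested cytosines, and below both at 10, 2.28%, against 18.9%. The FGR mean was the higher at 384 of the 438 and the lower at 52, while over all tested cytosines 45.5% were higher. The median difference was 2.21 points in mtDNA and -0.476 points over all tested cytosines. Reads are shared between neighbouring cytosines, so these are not 438 independent measurements.

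With at least 30 reads in every library, where 7009 cytosines and 423 of mtDNA were tested and 0.571% of all were called, 5 mtDNA cytosines passed. All 5 lay on the plus strand of COX1 and were higher in FGR, with adjusted p of 0.00732 to 0.0256 by the quasi-binomial test. They are at bases 5588, 5613, 5726, 6389 and 6431. None of the 5 was called with at least 10 or at least 5 reads in every library. The limma test was run only on cytosines with at least 10 reads, and did not call them there, with adjusted p of 0.509 to 0.803.

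COX1, which encodes the catalytic core subunit of cytochrome c oxidase, had the largest difference of the mitochondrial genes tested. It lies from 5328 to 6872 and had 54 to 56 listed cytosines per library. Its level was 1.75% in control replicate 1 and 0.788% in control replicate 2, over 3654 and 5708 read counts. It was 12.2% in FGR replicate 1 and 8.79% in FGR replicate 2, over 4928 and 9054 read counts. Both FGR libraries stood far above both controls, and the group means were 1.27 ± 0.681% and 10.5 ± 2.38%, 8.25-fold apart. In the fit over all 34819 gene spans and regions the unadjusted p was 0.000192 and the adjusted p 0.756, by the quasi-binomial test. On the cytosines listed in all 4 libraries, where 15914 regions were tested, the adjusted p was 0.00129.

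The level of the windows across COX1 varied in both FGR libraries. The window from 5001 to 5500, which holds the start of the gene, had 5.42% and 3.02% in FGR. That window also holds cytosines of TrnN, TrnC and the sequence outside genes, so its level is not that of COX1 alone. In FGR the level was 11.7% and 10.8% from 5501 to 6000, 12.8% and 8.21% from 6001 to 6500, and 32.7% and 22.3% from 6501 to 7000. The controls had 1.51% and 0.591%, 1.56% and 0.892%, 1.96% and 0.926%, and 0.840% and 0% in these windows. The last of these windows was covered thinly, by 11.9 to 37.3 reads per listed cytosine, against 64.0 to 199 in the others.

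The 3 single sites of COX1 given next were chosen by their p, so their separation of the groups follows from that choice. At base 5613 on the plus strand 0 of 31 and 0 of 52 reads were methylated in the controls, and 12 of 35 and 20 of 79 in FGR, which are 34.3% and 25.3%. At base 5726 it was 0 of 49 and 0 of 68, and 13 of 65 and 22 of 114. At base 6389 it was 1 of 67 and 0 of 98 in the controls and 18 of 108 and 29 of 185 in FGR. These are the 3 mtDNA cytosines with the smallest p among those higher in FGR, with adjusted p of 0.308, 0.328 and 0.348 by the quasi-binomial test. As a description, both FGR libraries lay above both controls in each of them. A count of 0 in 31 reads, as in control replicate 1 at base 5613, still allows a level of about 9.68%. This takes 3 counts as the approximate 95% limit.

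Of the 8 cytosines with the highest mean level over the 4 libraries, 7 lay in COX1. Their levels are given as a description, since the level chose them. The highest was base 6581 on the plus strand with 0% in both controls and 41.7% and 32.1% in FGR, over 17 to 53 reads. Base 6569 had 5.26% and 0% in the controls and 39.3% and 28.3% in FGR. Bases 6639 and 6642 had 0% in both controls over 9 and 13 reads, 45.5% in FGR replicate 1 over 11 reads, and 21.4% and 22.2% in FGR replicate 2. Base 5588 had 0% and 1.54%, and 32.5% and 22.2%, and base 6640 on the minus strand had 0% in both controls and 33.3% and 23.3% in FGR. The remaining site of the 8, base 1772, lies in mt-Rnr2 and is described with that gene.

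The subunits of complex I, NADH dehydrogenase, had smaller differences. ND1, from 2751 to 3707, had 0.675% and 0.995% in the controls and 3.58% and 2.85% in FGR, with 46 cytosines per library. ND2, from 3914 to 4951, had 0.811% and 1.49%, and 4.69% and 3.63%. ND4, from 10167 to 11544, had 2.44% and 1.34%, and 6.01% and 4.61%. In all of these genes the groups did not overlap. ND5, from 11742 to 13565 and the longest of them, had 0.870% and 0.954% in the controls and 2.24% and 1.75% in FGR. ND6, from 13552 to 14070, the only protein gene read from the opposite strand to the others, had 1.54% and 1.88%, and 2.41% and 3.19%. The differences were 2.38 points in ND1, 3.01 in ND2, 3.42 in ND4, 1.08 in ND5 and 1.09 in ND6. Both FGR libraries lay above both controls in ND5 and ND6 as well, with the smallest differences of the protein genes tested. None of the 5 was called in the fit over gene spans (adjusted p of 0.756 to 0.896 by the quasi-binomial test). In the fit on cytosines listed in all 4 libraries ND1 passed, with an adjusted p of 0.0221 by the same test. Its cytosines and levels were the same in both fits, and the other regions fitted differed.

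CYTB encodes cytochrome b, the mitochondrial subunit of complex III. It lies from 14145 to 15288 and had 1.61% and 0.997% in the controls and 4.69% and 3.96% in FGR, over 3799 to 8789 read counts and 48 cytosines. The groups did not overlap, and the difference was 3.02 points. The adjusted p was 0.756, or 0.0182 in the fit on cytosines listed in all 4 libraries, by the quasi-binomial test. The cytosines and levels of CYTB were the same in both fits, and the other regions fitted differed. Across these 7 protein genes FGR replicate 1 was the higher FGR library in 6, and ND6 was the exception.

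The other 6 protein genes could not be compared. COX2, ATP8 and ATP6 had 0 listed cytosines in any library, and COX3, ND3 and ND4L had none in the controls. Control replicates 1 and 2 listed nothing between bases 6784 and 10727, a gap of 3943 bases. The FGR libraries listed a few sites between 9366 and 9944, thinly covered. There FGR replicate 1 had 3 of 18 read counts methylated in ND4L, 16.7%, and FGR replicate 2 had 0 of 29. COX2 and COX3 encode further core subunits of cytochrome c oxidase and ATP6 and ATP8 are subunits of ATP synthase, so none of the mitochondrial ATP synthase genes was measured.

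**Figure D2:**
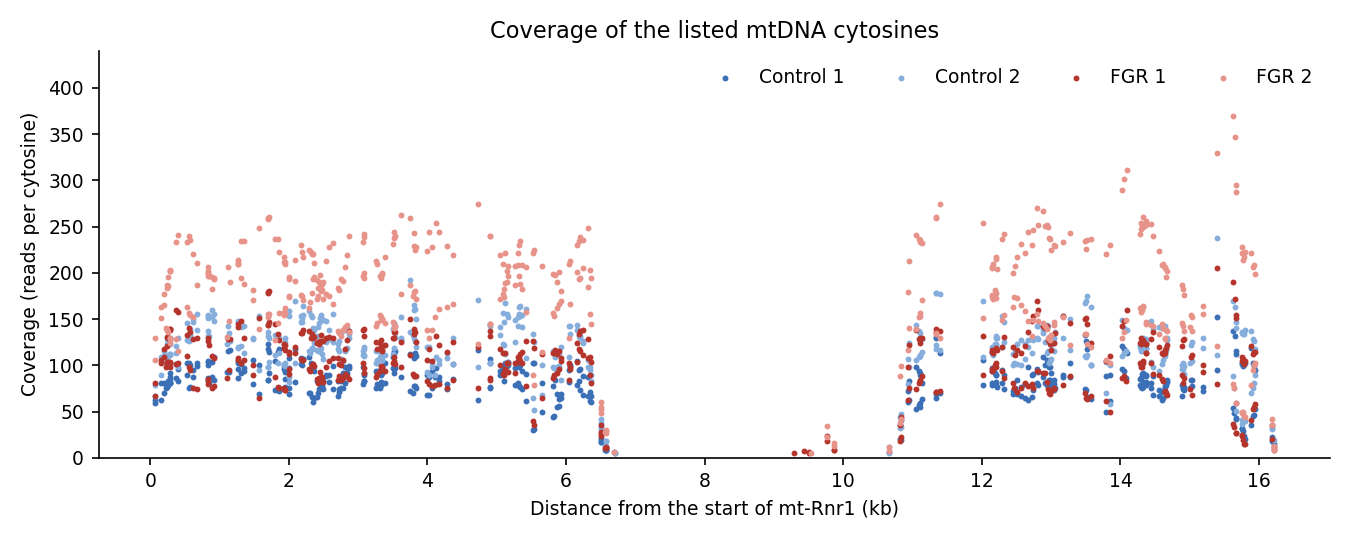
Coverage in reads per listed cytosine (vertical axis) against distance in kb from the start of mt-Rnr1, colored by library. Coverage falls at the end of COX1, the stretch that follows has no or few listed cytosines in the 4 libraries, and FGR replicate 2 is the deepest.

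The rRNA genes separated the FGR libraries from each other. mt-Rnr1, the RNA of the small mitochondrial ribosomal subunit, lies from 70 to 1024 and had 0.764% and 0.830% in the controls, 8.12% in FGR replicate 1 and 1.279% in FGR replicate 2. mt-Rnr2, the RNA of the large subunit, lies from 1094 to 2675 and had 0.844% and 0.911%, and 8.75% and 1.13%. Both FGR libraries lay above the controls, but FGR replicate 2 only slightly. Over both genes the controls averaged 0.848 ± 0.0466% and the FGR libraries 4.86 ± 5.19%, which is 4.01 points more. It was 0.335 points without FGR replicate 1 and 7.68 points without FGR replicate 2. The spread between the FGR libraries exceeds the group difference, and the adjusted p of mt-Rnr1 and mt-Rnr2 were 0.865 and 0.883 by the quasi-binomial test.

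A short cluster in mt-Rnr2 had the highest levels of FGR replicate 1. At base 1772 on the plus strand 70 of 144 reads were methylated there, 48.6%, against 1 of 84 and 1 of 98 in the controls and 2 of 152 in FGR replicate 2. At bases 1774 and 1786 it was 69 of 144 and 70 of 147 in FGR replicate 1. On the minus strand, bases 1773, 1775 and 1787 had 56 of 178, 56 of 179 and 57 of 180, which are 31.3% to 31.7%. A read that covers all of these sites counts at each of them. The difference between the groups at base 1772 was 23.9 points, and 0.210 points without FGR replicate 1. FGR replicate 1 also had more coverage at these sites than at their neighbours: 144 to 147 reads on the plus strand against 65 at base 1635 and 87 at base 1871. Control replicate 1 had 84 to 92 reads at these sites and 69 and 73 at those neighbours, and FGR replicate 2 had 152 to 155, and 139 and 127. The part of this coverage in the level was not tested. The level fell to 19.5% at base 1871 and to 5.33% at base 1928 in FGR replicate 1. FGR replicate 2 had at most 2.58% at any cytosine from 1553 to 1929.

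The tRNA genes and the sequence outside genes had the smallest differences of the 4 classes. Cytosines in tRNA genes only, 28 in all, had 0.887% and 0.847% in the controls and 1.56% and 0.879% in FGR. The difference was 0.352 points, and 0.0125 points without FGR replicate 1. Of the 22 tRNA genes 7 had a listed cytosine in every library and 4 could be tested, with 0 called. Those with the most reads were TrnM, with 0.674% and 0.874% in the controls and 1.46% and 0.858% in FGR, TrnE with 0.932% and 1.17%, and 1.94% and 1.17%, and TrnC with 0.985% and 0.778%, and 1.25% and 0.377%. The groups overlapped in these 3 genes. They did not overlap in TrnW, the remaining tRNA gene tested, which is named after its values were seen and had 0.276% and 0.203% in the controls and 0.683% and 0.649% in FGR (adjusted p = 0.947, quasi-binomial test). In TrnL1, a leucine tRNA gene, base 2702 had 3 of 74 and 5 of 125 methylated reads in the controls and 0 of 108 and 1 of 166 in FGR. It was the 1 cytosine with an unadjusted p under 0.05 and a lower level in FGR (unadjusted p = 0.0227, adjusted p = 0.966, quasi-binomial test). The next smallest p among the lower sites were those of base 2010 in mt-Rnr2, with 4.12% and 4.85% in the controls and 0.820% and 1.43% in FGR, and base 15701 in the control region, where 0%, 2.37%, 0% and 0.270% were seen in the 4 libraries.

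Beyond the last gene, TrnP, which ends at 15422, lies the control region. Its 32 listed cytosines had 0.989% and 0.791% in the controls and 1.19% and 1.284% in FGR, over 2224 to 4673 read counts. With the 6 cytosines between genes added, the level was 1.11% and 0.673% in the controls and 1.282% and 1.15% in FGR, a difference of 0.324 points. FGR lay above both controls by less than the gap between the controls. The control region also held the cytosines with the highest coverage, at bases 15466, 15701 and 15717 on the minus strand, with 132 to 370 reads and levels of at most 2.37%. The lowest coverage of a cytosine listed in all 4 libraries was at base 16283, with 9 to 19 reads, followed by bases 6642 and 6639 in COX1.

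Set side by side, the class differences were 3.56 points in protein-coding genes, 4.01 in rRNA genes, 0.352 in tRNA genes and 0.324 outside genes. The protein-coding genes had 1.15 ± 0.159% in control and 4.71 ± 0.813% in FGR. The exact permutation p was 0.333 for each class except the tRNA genes with 0.667, and 0.444 to 0.667 after adjustment over the 4 classes. Whether the classes differ from each other in their response was not tested.

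Over the gene spans as a whole, 0 of 14 mitochondrial regions were called by the quasi-binomial test, which called 0% of 34819 regions. At an unadjusted p under 0.05 there were 6 of 14, against 6.14% of all regions, and with limma there were 0 called and 1 at an unadjusted p under 0.05. Both FGR libraries lay above both controls in 11 of the 14, against 11.8% of all regions. The FGR mean was higher in 13 of 14, all but TrnC, against 40% of all regions, and the median difference was 1.74 points in mtDNA and -0.945 points over all regions. On cytosines listed in all 4 libraries 3 of 14 were called, COX1, CYTB and ND1, each higher in FGR, where 0.0314% of all regions were called.

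**Figure D3:**
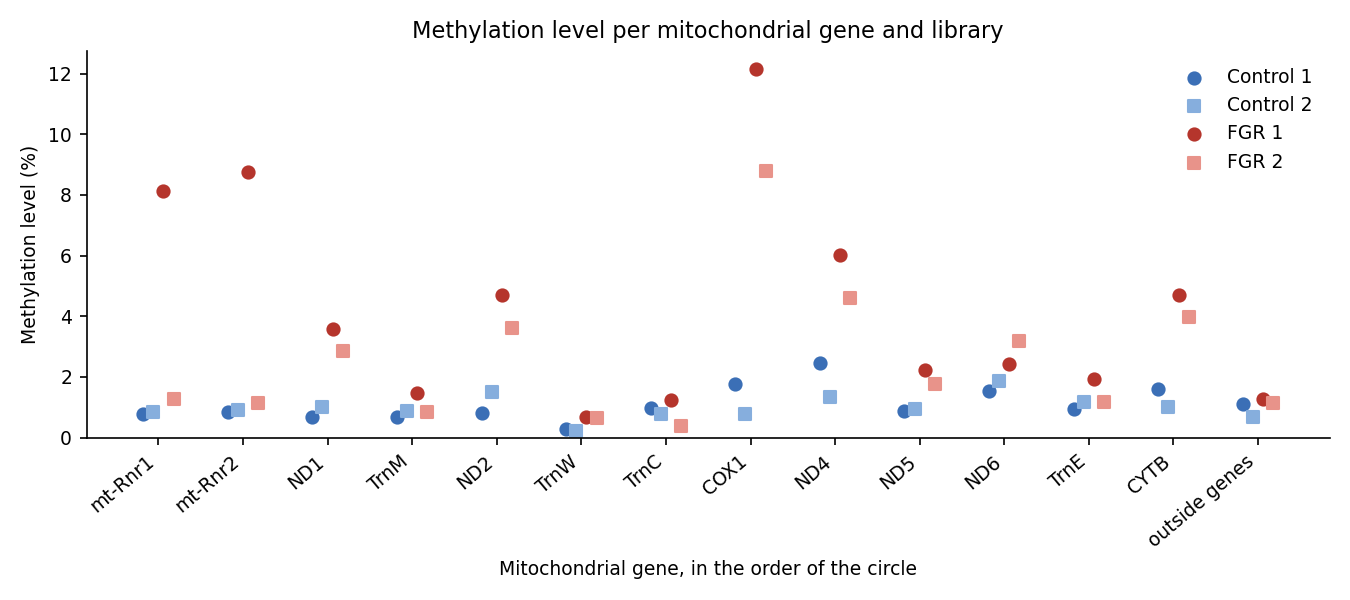
Methylation level in percent (vertical axis) of the 13 mitochondrial genes tested and of the sequence outside genes, in the order of the circle, with 1 point per library (blue, controls; red, FGR). COX1 is the highest in both FGR libraries, and FGR replicate 2 lies near the controls in mt-Rnr1 and mt-Rnr2.

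The pattern of levels over positions was shared by the FGR libraries and not by the controls. Across the 443 cytosines listed in all 4 libraries, the levels of FGR replicates 1 and 2 had Pearson's r of 0.577 and Spearman's rho of 0.413. Without the 500 bases that hold the cluster in mt-Rnr2, r was 0.743 over 427 cytosines. The controls had r of 0.103 and rho of 0.0496 with each other. Between a control and an FGR library r lay between -0.0568 and 0.0762. There rho lay between 0.00569, for control replicate 2 with FGR replicate 1, and 0.175, for control replicate 1 with FGR replicate 2. These correlations are over sites of the same molecule that share reads, position and depth, and the narrow range of levels in the controls leaves little to correlate.

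**Figure D4:**
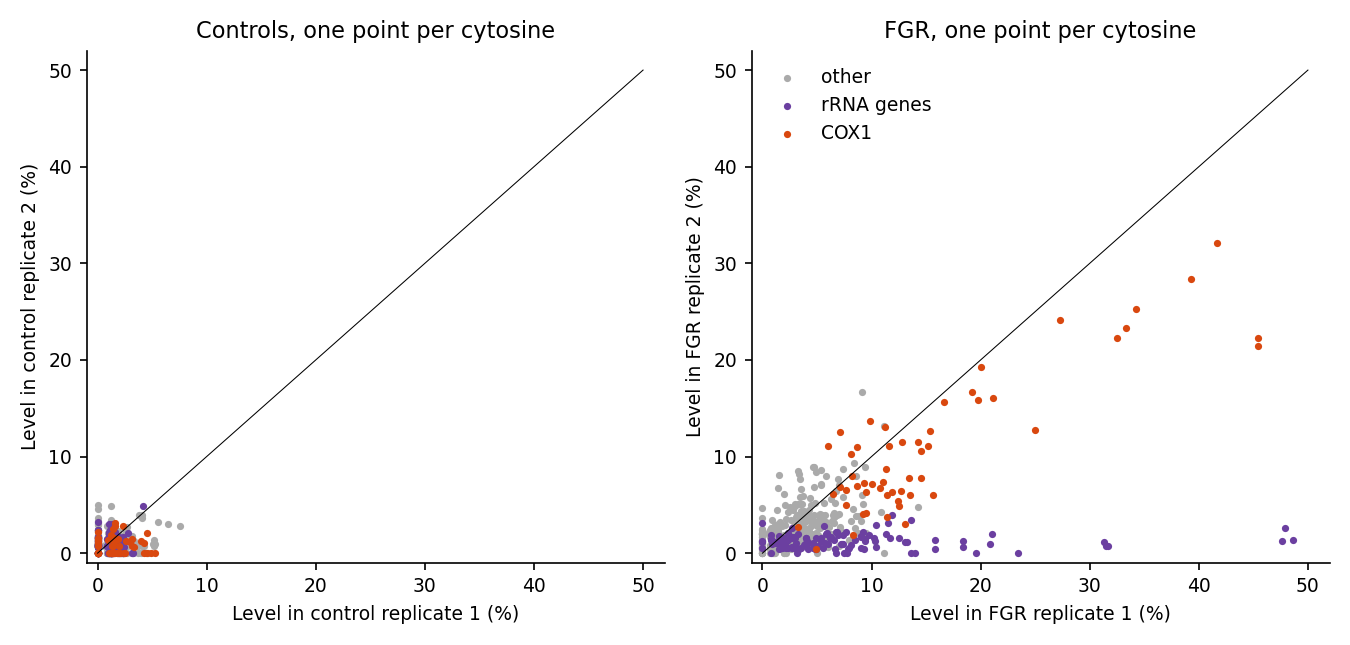
Level in replicate 2 against level in replicate 1, in percent, for the controls (left) and FGR (right), with 1 point per mtDNA cytosine listed in all 4 libraries and the line of equal levels. Cytosines of COX1 (orange) are high in both FGR libraries, cytosines of the rRNA genes (purple) in FGR replicate 1 alone, and the controls stay near 0.

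The strands were compared because cytosines of the plus strand and of the minus strand of a CpG are counted in separate reads, though both can come from the same circle. In the controls the plus strand had 0.994% and 1.01% and the minus strand 1.18% and 0.907%. In FGR the plus strand had 7.09% and 3.61% and the minus strand 4.81% and 2.38%. The plus strand was the higher by 2.27 and 1.23 points in FGR, and differed by -0.187 and 0.10 points in the controls. Over the 4 libraries the mean of plus minus minus was 0.854 ± 1.13 points (two-sided exact sign-flip permutation p = 0.375, n = 4, where 0.125 is the smallest possible). Without FGR replicate 1 it was 0.380 points. The group difference was 4.35 points on the plus strand and 2.55 points on the minus strand. Of CpGs listed on both strands, the plus strand was the higher at 148 and the minus strand at 71 of 224 in FGR replicate 1, and at 147 and 75 of 225 in FGR replicate 2. The controls had near-equal numbers, 88 and 91 of 221, and 105 and 98 of 223.

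The strands of a CpG were also set against each other across CpGs, as a description of sites that share a library. Pearson's r between the strands of a CpG was 0.865 and 0.767 in FGR replicates 1 and 2, over 224 and 225 CpGs, and 0.0173 and 0.00935 in the controls. At bases 134 and 135, the 2 strands of the first listed CpG of mt-Rnr1, FGR replicate 1 had 20.9% and 23.5%, and FGR replicate 2 had 0.943% and 0%. The minus strand had more reads in every library, by 1.23 and 1.14 times in the controls and 1.46 and 1.44 times in FGR (two-sided exact sign-flip permutation p = 0.125, n = 4). That ratio did not overlap between the groups (exact permutation p = 0.333). Its part in the levels was not tested.

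**Figure D5:**
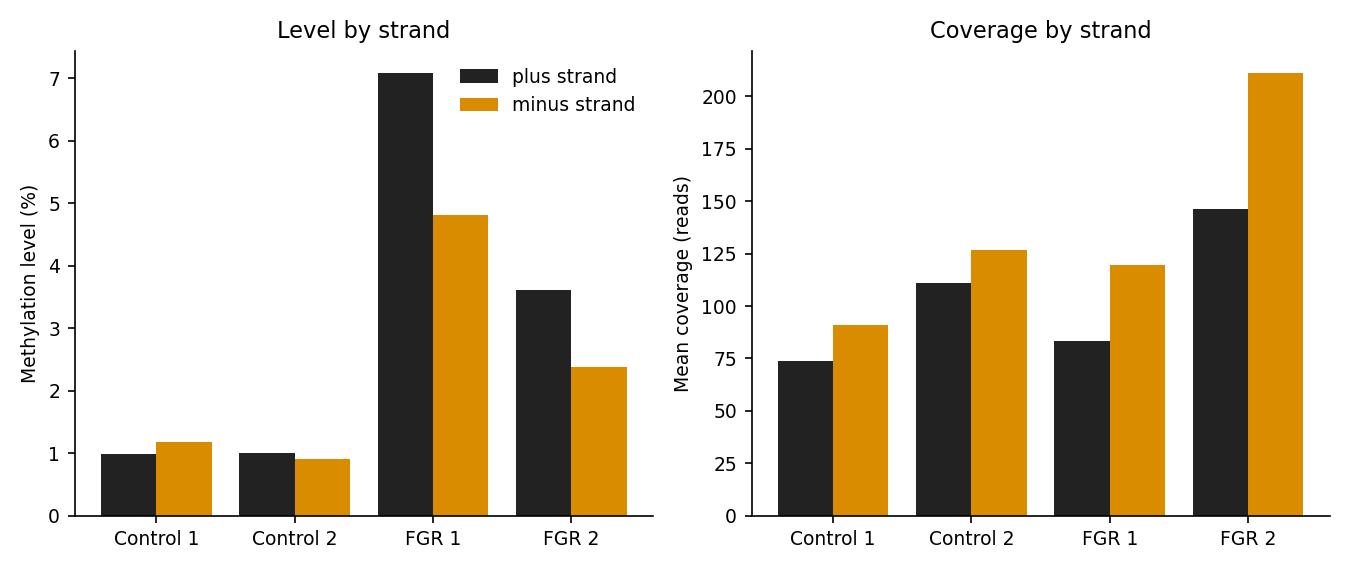
Methylation level in percent (left) and mean coverage in reads (right) of the listed mtDNA cytosines on the plus strand (black) and minus strand (orange) of each library. The plus strand has the higher level in both FGR libraries, and the minus strand the higher coverage in all 4.

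The depth of mtDNA differed between libraries. Listed mtDNA cytosines had a mean coverage of 82.4 and 119 reads in the controls and 102 and 179 in FGR. That was 12.6 and 18.0 times the mean of listed autosomal cytosines in the controls, and 15.9 and 26.7 times in FGR. The ratio was 15.3 ± 3.86 in control and 21.3 ± 7.68 in FGR, and the groups overlapped (exact permutation p = 0.667). The difference of 5.997 fell to 0.569 when FGR replicate 2 was left out and rose to 11.4 when FGR replicate 1 was, so these libraries show neither a difference nor its absence. More circles per cell and more mitochondrial DNA carried through extraction cannot be told apart. As autosomal cytosines with fewer than 5 reads are not listed, the autosomal mean is too high and the ratio too low by an amount that the tables do not give. Over all listed cytosines, FGR replicate 1 had the lowest summed coverage, 49563150 reads, and FGR replicate 2 the highest, 91762720. The part of depth in the mtDNA levels was not tested.

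Nuclear copies of mtDNA were sought by the spacing of their CpGs, and 2 stretches were found. The first, on chromosome 2 from 22588209 to 22590178, repeats 35 of the 37 listed CpGs of mtDNA from 4796 to 6765, in the opposite orientation, and so covers most of COX1. The second, on chromosome 4 from 80002889 to 80004940, repeats 24 of 38 CpGs from 13045 to 15096, which holds parts of ND5 and CYTB and all of ND6. Both copies were heavily methylated in all 4 libraries. The copy on chromosome 2 had 77.6% and 86.5% in the controls and 81.4% and 84.7% in FGR, with 5.96 to 7.44 reads per listed cytosine. The copy on chromosome 4 had 84.9% and 72.6%, and 72.7% and 78.6%. The copy on chromosome 2 had 205 and 192 read counts in the controls and 161 and 320 in FGR. The copy on chromosome 4 had 192 and 84, and 77 and 201. Only cytosines with at least 5 reads are listed, and copy reads placed on mtDNA would not be counted here. These counts therefore cannot show whether such reads differ between the groups.

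The mtDNA that these copies repeat was compared with the rest of the circle. In the stretches with a copy the level was 1.49% and 0.927% in the controls and 6.33% and 4.82% in FGR, and outside them it was 0.914% and 0.967%, and 5.46% and 1.93%. The group difference was 4.36 points inside and 2.76 points outside, and the groups did not overlap in either. Whether the stretches differ from each other in their response was not tested, nor was the part that reads of nuclear copies have in the levels.

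A stretch of chromosome 1, where a long copy of mtDNA is known as background, was looked at after the levels were seen. The search by CpG spacing did not find it, and no alignment was made, so the identity of its cytosines as a copy of mtDNA was not checked. The gene table lists the pseudogene Gm10222 there and, just beyond it, Gm10925, which has mt-Atp6 among its synonyms. Cytosines on chromosome 1 from 24612433 to 24613310 had a mean coverage of 39.3 and 51.6 reads in the controls and 32.6 and 68.8 in FGR, between the autosomal means of 6.41 to 6.69 and the mtDNA means of 82.4 to 179. Their level was 6.90% and 4.43% in the controls and 4.68% and 5.19% in FGR, over 21 cytosines listed in all 4 libraries. The groups overlapped there. Whether this stretch has a part in the mtDNA sites that are not listed, or in the mtDNA levels, was not tested.

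The nuclear genes that maintain and transcribe mtDNA were counted in the same fit over gene spans. All 25 genes of the list were tested and 0 were called. The FGR mean was higher in 9 and lower in 16, with a median difference of -2.02 points, against 13940 higher and 20868 lower of 34819 regions and a median of -0.945 points. Twnk, which encodes the mtDNA helicase, had 77.6 ± 1.89% in control and 53.6 ± 5.05% in FGR, and Polrmt, the mitochondrial RNA polymerase gene, 90.5 ± 3.18% and 68.1 ± 13.4%. Tfam, which encodes the protein that packages mtDNA, had 82.8 ± 12.4% and 87.0 ± 0.708%, and Polg, the gene of the mtDNA polymerase, 81.0 ± 10.2% and 72.0 ± 5.69%. These 4 genes were chosen after their values were seen. Their adjusted p lay between 0.756 and 0.941 by the quasi-binomial test.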

How the data were processed

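Genomic DNA was sonicated and bisulfite converted, per the labels' protocols. The tools and build listed, per the submitters' processing notes, include methylKit 1.28.0, Trim Galore 0.6.5, mm10 and Bismark (release not given in the sources used here). Per the file headers, the authors deposited for each CpG cytosine and strand a read count (coverage) and the methylated and unmethylated percent. Multiplying the 2 gave whole methylated reads within 0.02 reads for 100% of cytosines. The lowest deposited coverage is 5. Listed cytosines had a summed coverage of 49563150 to 91762720 reads.

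Levels were methylated over all reads. The quasi-binomial model had group as its only term, with overdispersion moderated by squeezeVar of limma 3.58.1 (R 4.3.3), a trend on coverage and a floor of 1, and Benjamini-Hochberg adjustment over all features. Cytosines needed 10 reads, and gene spans 3 cytosines and 10 reads, in every library. Limma used log2 ratios with 0.5 added. The models were tested on simulated data with changes larger than most mtDNA differences here, so that test does not give their power for these. No mtDNA sequence was used here. Named are the protein-coding and rRNA genes, the 3 tRNA genes with the most reads, the 3 cytosines with the smallest p in each direction, the 8 highest and the 3 of highest and lowest coverage. Members and lists were chosen with earlier results of these data known. Shared replicate numbers do not pair the samples, as the labels name no shared source. Sensitivity to coverage, cytosines listed, tests and left-out libraries is given below. Some marker genes are not reported here.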

Additional observations from a re-analysis of the deposited data

How the results depend on the processing

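With 2 libraries a group no permutation test here could pass its threshold, so these results can change only in value or direction. Of the values that answer a comparison, 103 kept the direction or the count under an alternative, and 2 counts moved. These raised a count of calls from 0: to 5 mtDNA cytosines with 30 reads or more, and to 3 mitochondrial genes on cytosines listed in all 4 libraries. In these fits the numbers at an unadjusted p under 0.05 also moved, from 92 to 110 cytosines and from 6 to 9 regions. The counts of a cytosine are the same in both cytosine fits. ND1 and CYTB kept all their cytosines, and their differences of 2.38 and 3.02 points, in both gene fits. Their p therefore changed with the other features fitted, which set the moderation of overdispersion and the adjustment. The number of cytosines was lower in 2 other settings of the quasi-binomial test. It was 44 of 443 with coverage of 5 or more, and 45 of 438 with the replicate block, which had 8 regions. With both strands summed it was 58 of 222 CpGs, a number not comparable with those of single cytosines. The difference in mtDNA level lay between 1.86 and 4.71 points when 1 library was left out. It was 2.76 points without the stretches that have a nuclear copy. Chosen after seeing the data, leaving out COX1 to ND4 gave 2.50 points, and leaving out COX1 and mt-Rnr2 gave 2.14 points. The difference in coverage ratio lay between 0.569 and 11.4 with 1 library left out, and was 3.33 on shared cytosines. The difference outside genes lay between 0.104 and 0.543 points, without control replicates 2 and 1. With 1 library left out, the difference at base 15701 lay between -2.23 and 0.135 points, turning positive without control replicate 2. That of TrnC lay between -0.504 and 0.365 points, turning positive without FGR replicate 2 and, at 0.0339 points, without control replicate 1. The replicate block left the difference in mtDNA level at 3.28 points and called 0 cytosines and 0 genes. Deviations of same-numbered libraries had a correlation of 0.0227 over mtDNA cytosines.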
